A study of Homo sapiens with 9 samples.

Results

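The genes described here are 10 components of the Notch pathway, read from 9 RNA-seq libraries of TC-32, an established human Ewing sarcoma cell line driven by the fusion oncogene EWSR1::FLI1. They were taken by symbol from the gene rows of both deposited tables: the receptors NOTCH1, NOTCH2 and NOTCH3, the ligands JAG1, JAG2 and DLL1, the nuclear mediator RBPJ, and the targets HES1, HEY1 and HEY2. All 10 symbols were found once among 58381 gene rows. The cells of the control group carried the pLOC lentiviral vector with a red fluorescent protein (RFP), and those of the other groups carried pLOC with a synthetic ETS1 coding sequence and expressed it at a level set to match cells depleted of the fusion (ETS1-High) or at a lower level (ETS1-Low). ETS1 is a transcription factor of the family that also contains FLI1, and the study asked what it regulates while the fusion is present. Each group had 3 libraries. All cells still held the fusion and had passed puromycin selection and single-cell sorting, and the ETS1 groups were described as single-cell clones, so a difference between clones and an effect of ETS1 cannot be told apart. The labels do not say whether the 3 libraries of a group came from separate cultures, and p-values then measure only the spread between these libraries, which may be technical.

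Notch receptors are single-pass membrane proteins that are activated by ligands of the Delta and Jagged families on a neighbouring cell. Ligand binding opens the receptor to cleavage, first by an ADAM protease and then by gamma-secretase, and the released intracellular domain enters the nucleus, binds the DNA-binding protein RBPJ and recruits Mastermind coactivators. RBPJ without the intracellular domain holds corepressors at the same sites, and the best known direct targets are the HES and HEY repressors and NRARP. Expression of HES and HEY genes is commonly read as a sign of Notch activity, although other signals control them too.

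The totals of expected counts, RSEM's estimate of the fragments per gene, ran from 39484704 to 46654734 per library. ETS1 itself stood at 1.81 to 2.15 CPM (counts scaled to library size with TMM factors) with RFP, 10.3 to 10.9 CPM with ETS1-Low and 18.2 to 19.7 CPM with ETS1-High, in the order of the labels, and these counts do not separate vector from endogenous transcripts. All 8 Ewing sarcoma markers listed (CD99, NKX2-2, NR0B1, STEAP1, LIPI, PRKCB, CCND1 and FLI1) were above 1 CPM in every library, and their sum was 2518 to 2625 CPM with RFP, 3796 to 3862 CPM with ETS1-Low and 3859 to 3868 CPM with ETS1-High. The 4 leukocyte markers summed to 1.11 to 1.62, 0.178 to 0.244 and 0.224 to 0.635 CPM in the same order, with CD3E at 0 throughout and none of the 4 above 1 CPM in every library. The 4 endothelial markers summed to 2.32 to 2.97, 3.59 to 3.99 and 4.97 to 5.56 CPM, and the 4 epithelial markers to 0.0427 to 0.187, 0.899 to 1.35 and 2.00 to 3.09 CPM. The 4 fibroblast markers summed to 47.7 to 54.6 CPM with RFP, 30.3 to 33.5 CPM with ETS1-Low and 51.4 to 58.5 CPM with ETS1-High. CCND1 held most of the Ewing sarcoma sum, at means of 1548 CPM with RFP, 2518 CPM with ETS1-Low and 2498 CPM with ETS1-High. It is also counted, without being named, among the other Notch targets below. Single markers moved differently from these sums. COL1A1 held most of the fibroblast sum, while PDGFRA averaged 12.8, 3.72 and 2.95 CPM in the same order, DCN 0.0138, 0.0406 and 0.914 CPM, and LUM 0.385 CPM in ETS1-High and 0 elsewhere. PECAM1 held most of the endothelial sum in each group (1.70, 3.69 and 5.16 CPM) and TEK went from 0.766 to 0.0378 and 0.00846 CPM. KRT5 held most of the epithelial sum in the ETS1 groups (0.0208, 0.857 and 2.39 CPM), and CD14 most of the leukocyte sum (1.20, 0.203 and 0.272 CPM). The part of these markers in the results below was not tested.

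Receptors and the mediator RBPJ were mostly lower in the ETS1 groups than in RFP, whereas the targets HES1 and HEY1 were higher in ETS1-High and HEY1 also in ETS1-Low. With ETS1-High against RFP, 8 of the 10 genes passed an adjusted p of 0.05, 2 higher (HES1, HEY1) and 6 lower (NOTCH1, NOTCH3, JAG2, DLL1, RBPJ, HEY2), where 74.2% of the 17235 genes tested passed (37.0% higher, 37.2% lower). With ETS1-Low against RFP, 9 passed, 3 higher (NOTCH2, JAG2, HEY1) and 6 lower (NOTCH1, NOTCH3, JAG1, DLL1, RBPJ, HEY2), against 74.1% of all genes (37.9% higher, 36.2% lower). With ETS1-High against ETS1-Low, 6 passed, 3 higher (NOTCH1, JAG1, HES1) and 3 lower (NOTCH2, NOTCH3, JAG2), against 59.2% of all genes (29.9% higher, 29.3% lower). A change of at least 2-fold was found for HEY1 (higher; 9.64% of all genes) and DLL1 (lower; 11.4%) in ETS1-High, for JAG2 and HEY1 (higher; 8.47%) and NOTCH1, DLL1 and HEY2 (lower; 12.2%) in ETS1-Low, and for JAG2 (lower; 3.69%, while 6.05% of all genes were higher) between the ETS1 groups. Since most genes of these cells passed, the number of Notch genes that did so is near the background and is not a result about them, and the sizes and directions below are what the counts add. Both comparisons with RFP use the same RFP libraries. DLL1 and HEY2 met the filter on low counts through the RFP libraries alone, so against RFP they could only be found lower. Without them the counts were 2 higher and 4 lower of 8 in ETS1-High, 3 higher and 4 lower in ETS1-Low, and 3 and 3 between the ETS1 groups. On log2(FPKM + 1) without a filter the share of higher genes among all called moved from 49.8% to 38.1% in ETS1-High and from 51.2% to 36.5% in ETS1-Low, both against RFP.

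**Figure D1:**
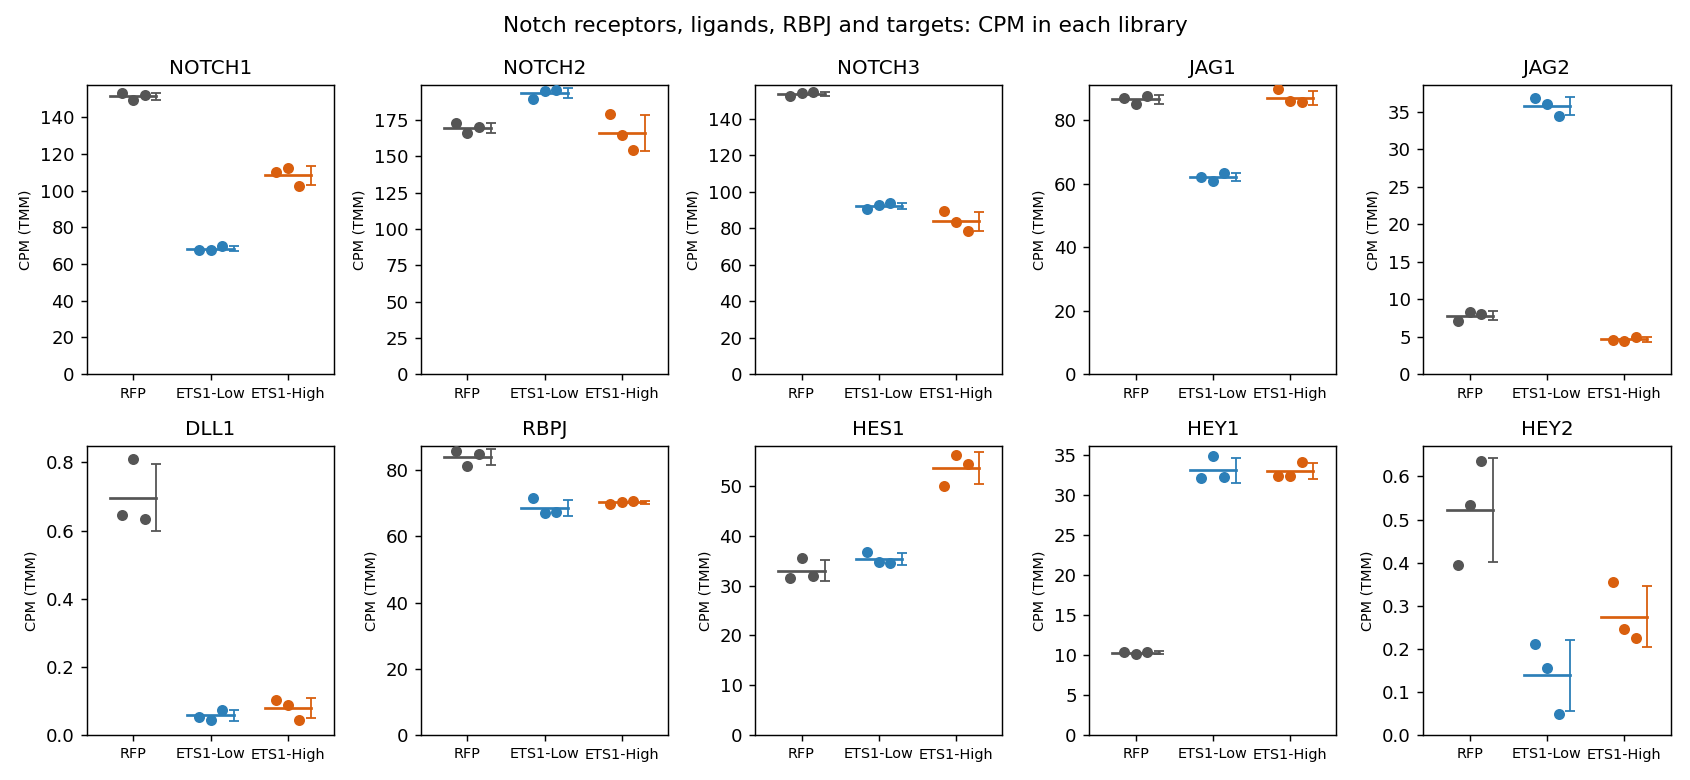
CPM of each gene in each of the 9 libraries, with the group mean as a line and the SD (n = 3) as the bar beside it; every axis starts at 0. JAG2 stands high in ETS1-Low alone, HES1 in ETS1-High alone, and HEY1 in both ETS1 groups.

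NOTCH1 (ENSG00000148400.10; chromosome 9, 136494433 to 136546048, minus strand, on GRCh38) was lower in both ETS1 groups and lowest in ETS1-Low. The values were 153, 149 and 152 CPM with RFP, 67.5, 67.8 and 69.8 CPM with ETS1-Low, and 110, 112 and 102 CPM with ETS1-High. No library of one group overlapped another group. NOTCH1 fell by 1.15 on the log2 scale in ETS1-Low against RFP (SE 0.03; adjusted p 6.44e-34, edgeR) and fell by 0.48 in ETS1-High against RFP (SE 0.03; adjusted p 4.68e-19, edgeR). ETS1-High lay above ETS1-Low by 0.66 (SE 0.03; adjusted p 5.73e-23, edgeR), so the level did not follow the order of ETS1. In bulk RNA, fewer cells that express a gene and less of its RNA per cell cannot be told apart, here and for the genes below.

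The neighbours of NOTCH1 moved with it. The 166 other expressed genes within 10 Mb showed a median of -0.56 (log2) when ETS1-Low was compared with RFP, with 92.2% below 0. That leaves -0.59 of the change of NOTCH1 beyond its neighbours (with 5 Mb on each side the local median was -0.67). The local median was -0.12 in ETS1-High against RFP and 0.43 between the ETS1 groups, where NOTCH1 exceeded it by 0.23. The part of this regional shift in the NOTCH1 result was not tested.

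NOTCH3 (ENSG00000074181.8; chromosome 19, 15159038 to 15200995, minus strand) fell in both ETS1 groups while its neighbours were on balance higher. With RFP it measured 153, 154 and 155 CPM, with ETS1-Low 90.4, 92.7 and 93.7 CPM, and with ETS1-High 89.4, 83.3 and 78.6 CPM. The ETS1 libraries all lay far below RFP, and those of ETS1-High all lay just under those of ETS1-Low. Against RFP the log2 fold change was -0.74 for ETS1-Low (SE 0.03; adjusted p 5.57e-25, edgeR) and -0.88 for ETS1-High (SE 0.03; adjusted p 4.84e-28, edgeR). Its 310 expressed neighbours had medians of 0.25 in each of these comparisons. The step from ETS1-Low to ETS1-High, -0.14 (SE 0.04; adjusted p 0.000501, edgeR), did not pass on log2(FPKM + 1) without a filter (adjusted p 0.0777, the highest of its alternatives, which began at 1.49e-05).

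NOTCH2 (ENSG00000134250.19; chromosome 1, 119911553 to 120100779, minus strand) moved least of the receptors against RFP. Its libraries gave 173, 166 and 170 CPM with RFP, 190, 195 and 196 CPM with ETS1-Low, and 179, 165 and 154 CPM with ETS1-High. The ETS1-High libraries spread across the RFP range, and the ETS1-Low libraries lay above both. NOTCH2 rose by 0.19 in ETS1-Low against RFP (SE 0.04; adjusted p 4.96e-05, edgeR), but by 0.04 on log2(FPKM + 1), which did not pass (adjusted p 0.538; range over its alternatives 1.35e-09 to 0.645). In ETS1-High against RFP the difference was -0.03 (95% interval -0.11 to 0.05; adjusted p 0.473, edgeR). That difference passed with upper-quartile factors (-0.09, adjusted p 0.0313), without ETS1-High replicate 1 (-0.08, 0.0253) and on log2(FPKM + 1) (-0.18, 0.0101; range over all alternatives 0.00999 to 0.748), and its sign turned without ETS1-High replicate 3 (0.02, not passed). NOTCH2 fell by 0.22 from ETS1-Low to ETS1-High (SE 0.04; adjusted p 1.12e-05, edgeR), and its 63 expressed neighbours had a median of -0.20 in that comparison. The expected count of NOTCH2 was non-whole in all 9 libraries, and the related gene NOTCH2NL had a mean of 814 counts against 7748 for NOTCH2. Some reads may therefore be divided between them, and the small differences are uncertain.

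Among the ligands, JAG2 (ENSG00000184916.8; chromosome 14, 105140982 to 105168824, minus strand) changed in opposite directions in the ETS1 groups. The values were 7.09, 8.24 and 8.01 CPM with RFP, 36.8, 36.0 and 34.5 CPM with ETS1-Low, and 4.55, 4.40 and 4.97 CPM with ETS1-High. ETS1-Low stood far above RFP and ETS1-High below it, with no overlap. JAG2 rose 4.60-fold in ETS1-Low against RFP (log2 fold change 2.20, SE 0.06; adjusted p 2.07e-34, edgeR) and fell in ETS1-High against RFP (-0.74, SE 0.08; adjusted p 5.21e-12, edgeR). Between the ETS1 groups the log2 fold change was -2.95 (SE 0.07; adjusted p 1.96e-37, edgeR), a 7.70-fold difference. Its 67 expressed neighbours had medians between -0.08 and -0.02 in these comparisons.

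JAG1 (ENSG00000101384.12; chromosome 20, 10637684 to 10673999, minus strand), the ligand with the highest level, was lower in ETS1-Low alone. With RFP it measured 87.2, 85.1 and 87.7 CPM, with ETS1-Low 62.3, 61.0 and 63.3 CPM, and with ETS1-High 89.7, 86.0 and 85.8 CPM. ETS1-High and RFP overlapped, and each ETS1-Low library lay below both. JAG1 fell by 0.48 in ETS1-Low against RFP (SE 0.03; adjusted p 2.31e-18, edgeR) and lay 0.49 above ETS1-Low with ETS1-High (SE 0.03; adjusted p 4.13e-18, edgeR). ETS1-High and RFP differed by 0.01 (95% interval -0.06 to 0.07; adjusted p 0.834, edgeR), a difference whose sign turned with other size factors and on FPKM. The local medians of its 80 expressed neighbours ran from -0.11 to -0.03.

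DLL1 (ENSG00000198719.8; chromosome 6, 170282206 to 170306565, minus strand) was near the limit of detection. The RFP libraries held 31, 38 and 31 counts, those of ETS1-Low 2, 2 and 3, and those of ETS1-High 4, 4 and 2. From the summed counts the RFP level was 12.3 times that of ETS1-Low (95% counting interval 5.75 to 31.4) and 8.97 times that of ETS1-High (4.68 to 19.3), where the intervals cover counting error only. DLL1 met the filter on low counts through the RFP libraries alone, so against RFP it could only be found lower. Both differences passed in the edgeR test (adjusted p 1.45e-09 and 6.51e-09), which is therefore no support for their direction. They were -0.29 and -0.24 on log2(FPKM + 1), which understates changes of low genes. For DLL1 the ETS1 groups did not differ past the threshold (0.44, 95% interval -0.95 to 1.83; adjusted p 0.614, edgeR). Against RFP the median of its 22 expressed neighbours was -0.39 with ETS1-High and -0.30 with ETS1-Low, with 81.8% of them below 0 in each, and their part in the DLL1 result was not tested. DLL1 shares exon positions with FAM120B on the opposite strand, which had a mean of 1876 counts, and whether the counting was stranded is not given in the sources used here, so these few reads cannot be assigned with certainty.

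RBPJ (ENSG00000168214.20; chromosome 4, 26163455 to 26435131, plus strand), the protein through which Notch acts on DNA, was modestly lower in both ETS1 groups. Its libraries gave 85.8, 81.4 and 84.9 CPM with RFP, 71.4, 66.9 and 67.4 CPM with ETS1-Low, and 69.8, 70.4 and 70.6 CPM with ETS1-High. Every ETS1 library lay below every RFP library, and the ETS1 groups overlapped. RBPJ fell by 0.29 in ETS1-Low (SE 0.03; adjusted p 5.21e-11, edgeR) and fell by 0.26 in ETS1-High (SE 0.03; adjusted p 1.58e-09, edgeR) against RFP, and by more on log2(FPKM + 0.1), where the differences were -0.54 and -0.46. The difference between the ETS1 groups was 0.04 (95% interval -0.03 to 0.10; adjusted p 0.384, edgeR). Only 21 expressed genes lay within 10 Mb, with medians of 0.10 and -0.02 against RFP.

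HES1 (ENSG00000114315.3; chromosome 3, 194136148 to 194138732, plus strand), a basic helix-loop-helix repressor, and HEY2, a related repressor, are shown with the 250 bases before their RefSeq starts (GRCh38.p14, plus strand) because the core bound by RBPJ was found there. Capitals mark that core, TGGGAA, on either strand. HES1 is chr3:194135898-194136147 and HEY2 is chr6:125749382-125749631. The HEY2 window lies before a RefSeq start but inside the gene span given for HEY2 below, which begins at 125747664.
HES1: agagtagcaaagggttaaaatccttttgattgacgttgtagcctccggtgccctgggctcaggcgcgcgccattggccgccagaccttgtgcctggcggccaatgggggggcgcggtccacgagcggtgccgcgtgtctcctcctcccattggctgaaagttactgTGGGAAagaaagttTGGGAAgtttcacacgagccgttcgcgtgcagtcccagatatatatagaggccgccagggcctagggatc
HEY2: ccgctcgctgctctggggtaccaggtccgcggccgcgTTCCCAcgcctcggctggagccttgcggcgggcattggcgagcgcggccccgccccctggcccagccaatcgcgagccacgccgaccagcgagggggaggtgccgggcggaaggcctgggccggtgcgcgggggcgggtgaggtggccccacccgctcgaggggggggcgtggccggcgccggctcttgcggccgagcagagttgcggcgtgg
The HES1 window holds the core at 79 and 65 bases before the start, each on the plus strand and counted to the nearest base of the match, and the HEY2 window holds it once on the minus strand, 208 bases before the start.

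The same windows were searched for the other genes. RefSeq promoters were matched by symbol for 8 of the 10 genes, with 5 start sites for RBPJ, and DLL1 and HEY1 are named only. TGGGAA was found for HES1, HEY2 and 1 start site of RBPJ (2 matches, window not shown). It occurs on either strand in 20.8% of 35116 promoters of the same length. CCGGAA, an ETS core with its flank, and the tandem repeat GGAAGGAA were found in 0 of the windows of these 8 genes. They occur in 14.5% and 3.06% of all promoters, and no match overlapped one of another motif. A match is only a description of these letters.

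HES1 was highest with ETS1-High. The values were 31.6, 35.6 and 32.0 CPM with RFP, 36.8, 34.8 and 34.5 CPM with ETS1-Low, and 50.1, 56.4 and 54.5 CPM with ETS1-High. RFP and ETS1-Low overlapped, and every ETS1-High library lay above both. HES1 rose by 0.70 in ETS1-High against RFP (SE 0.04; adjusted p 1.97e-16, edgeR) and exceeded the ETS1-Low level by 0.60 (SE 0.05; adjusted p 3.81e-14, edgeR). The 73 expressed neighbours had medians between -0.03 and 0.01. In ETS1-Low against RFP the difference was 0.10 (95% interval 0.00 to 0.19; adjusted p 0.0622, edgeR). It passed without a filter on low counts (adjusted p 0.0335), and without RFP replicate 2 (0.15, 0.00468), ETS1-High replicate 1 (0.0372) or ETS1-High replicate 2 (0.0475), and it was -0.06 on log2(FPKM + 1) without passing (range over all alternatives 0.00468 to 0.478).

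HEY1 (ENSG00000164683.16; chromosome 8, 79762371 to 79767857, minus strand), a repressor of the same superfamily, was higher by about the same amount in both ETS1 groups. With RFP it measured 10.4, 10.1 and 10.3 CPM, with ETS1-Low 32.1, 34.9 and 32.2 CPM, and with ETS1-High 32.4, 32.3 and 34.1 CPM. The ETS1 groups overlapped, and each of their libraries lay above all RFP libraries. HEY1 rose by 1.69 in ETS1-Low (SE 0.05; adjusted p 9.14e-33, edgeR) and by 1.68 in ETS1-High (SE 0.05; adjusted p 8.15e-33, edgeR) against RFP. The difference between the ETS1 groups was -0.01 (95% interval -0.10 to 0.09; adjusted p 0.939, edgeR), although ETS1 itself differed by 0.85. The 42 expressed neighbours had medians of 0.27 in ETS1-Low and -0.06 in ETS1-High against RFP.

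HEY2 (ENSG00000135547.8; chromosome 6, 125747664 to 125761269, plus strand) was barely expressed. The counts were 19, 25 and 31 with RFP, 8, 7 and 2 with ETS1-Low, and 14, 11 and 10 with ETS1-High. All ETS1 libraries lay below all RFP libraries. The 59 expressed neighbours had medians of -0.13 in ETS1-Low and -0.05 in ETS1-High against RFP. Like DLL1, HEY2 met the filter on low counts through the RFP libraries alone, so against RFP it could only be found lower. The tests against RFP are therefore no support for the direction. HEY2 fell by 1.90 in ETS1-Low against RFP (SE 0.42; adjusted p 6.70e-05, edgeR) and by 0.93 in ETS1-High against RFP (SE 0.36; adjusted p 0.0197, edgeR). The latter did not pass in the DESeq2 test (adjusted p 0.0714) or without RFP replicate 3 (0.108), ETS1-High replicate 2 (0.0709) or ETS1-High replicate 3 (0.0855), over a range of 0.0132 to 0.108. On log2(FPKM + 1) the differences from RFP were -0.21 in ETS1-Low and -0.14 in ETS1-High. Between the ETS1 groups the difference was 0.97 (SE 0.47; adjusted p 0.0721, edgeR), which passed without ETS1-Low replicate 1 (1.36, adjusted p 0.0364; range 0.0364 to 0.405).

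**Figure D2:**
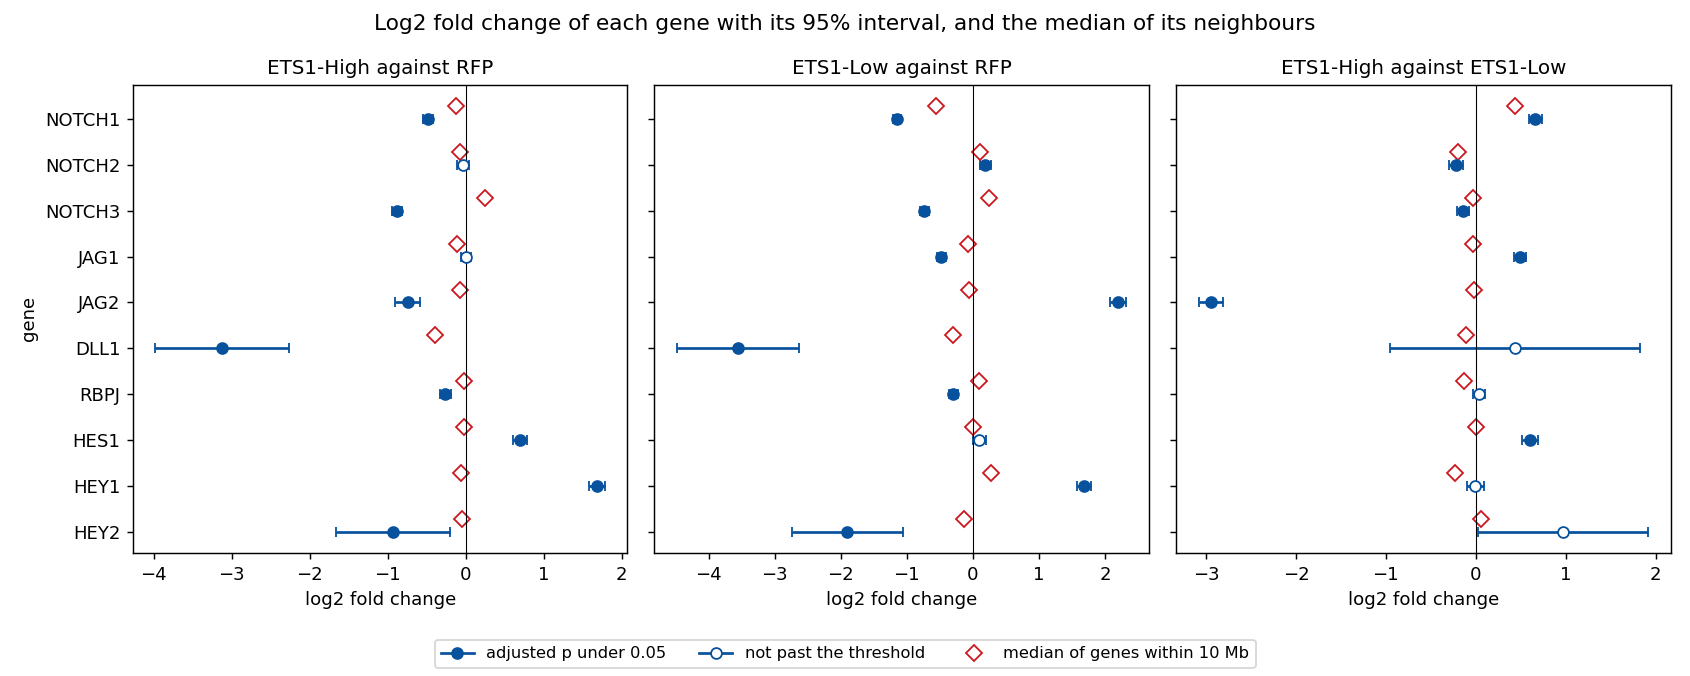
Log2 fold change of each gene in the 3 comparisons (circles, with the 95% interval from the edgeR fit; filled where the adjusted p was under 0.05) and the median log2 fold change of the expressed genes within 10 Mb (red diamonds). NOTCH1 in ETS1-Low lies on the same side as its neighbours at -0.56, NOTCH2 lies close to its neighbours in every panel, and JAG2 at 2.20 and HEY1 at 1.69 lie far from theirs.

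Levels were compared between genes on the FPKM scale, which accounts for gene length. In RFP the order of mean FPKM was HES1 (26.1 ± 2.05, SD, n = 3), RBPJ (22.4 ± 0.45), NOTCH3 (21.5 ± 0.66), JAG1 (19.5 ± 0.63), NOTCH1 (18.96 ± 0.04), NOTCH2 (17.1 ± 0.35), HEY1 (5.99 ± 0.28), JAG2 (3.11 ± 0.40), DLL1 (0.25 ± 0.04) and HEY2 (0.22 ± 0.05). Neighbours in that order overlapped in their libraries for RBPJ and NOTCH3, JAG1 and NOTCH1, and DLL1 and HEY2. HES1 led in all 3 groups, at 24.9 ± 0.84 FPKM in ETS1-Low and 38.9 ± 2.21 FPKM in ETS1-High.

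The order of the other genes changed between groups. HEY1 moved from the seventh place in RFP to the third in ETS1-Low (17.5 ± 0.93 FPKM) and in ETS1-High (18.0 ± 0.89 FPKM). It overlapped NOTCH2 in ETS1-Low and JAG1 in ETS1-High. JAG2 reached 11.6 ± 0.82 FPKM in ETS1-Low, where it overlapped both NOTCH3 and JAG1 (12.8 ± 0.68 FPKM), and it was 1.49 ± 0.39 FPKM in ETS1-High. NOTCH1 was the lowest of the receptors in ETS1-Low at 7.82 ± 0.36 FPKM, and NOTCH3 was the lowest in ETS1-High at 10.9 ± 0.52 FPKM. Summed over the 3 receptors, the level was 56.9 to 58.1 FPKM in RFP, 36.3 to 38.2 FPKM in ETS1-Low and 37.1 to 40.5 FPKM in ETS1-High. The 3 ligands summed to 21.7 to 23.5, 23.4 to 24.9 and 19.0 to 20.4 FPKM in the same groups, so JAG2 in ETS1-Low offset the fall of JAG1 there. The 3 targets summed to 30.9 to 34.4, 42.4 to 42.6 and 54.0 to 59.0 FPKM.

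**Figure D3:**
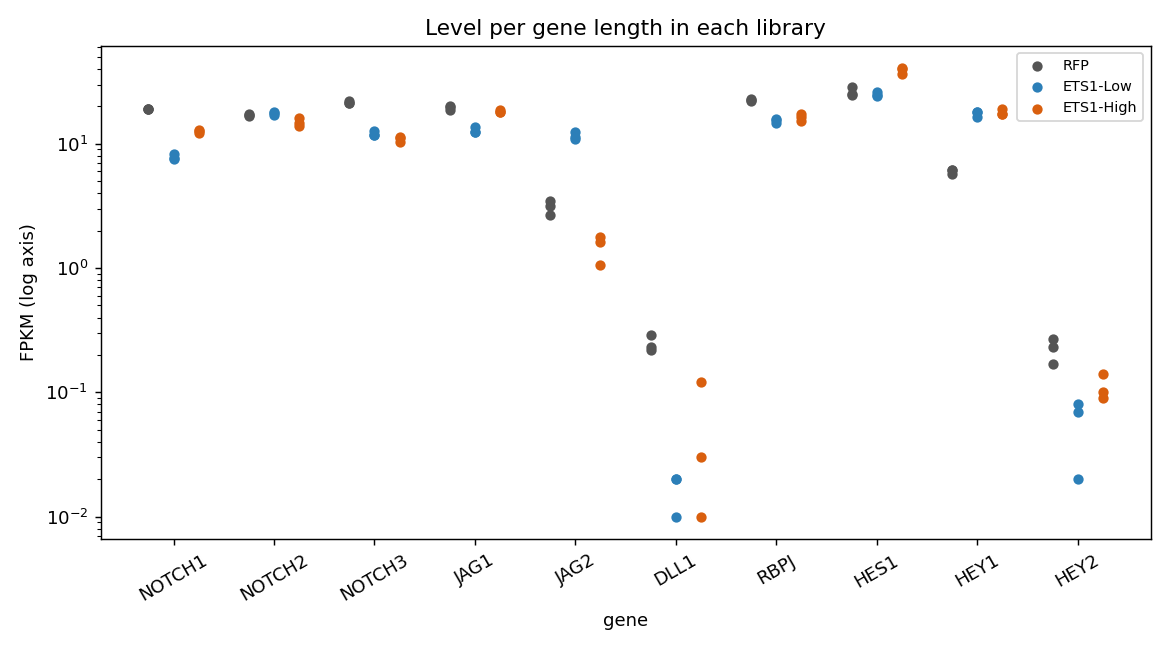
FPKM of each gene in each of the 9 libraries on a log axis, coloured by group. HES1 is at the top in every group, HEY1 rises from 5.99 FPKM in RFP to 17.5 and 18.0 FPKM, and DLL1 and HEY2 stay under 0.3 FPKM in every library.

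The rest of the pathway was read from a list of 66 further genes, of which 62 were tested and DLK1, MFNG, HES2 and HES5 were too low. With ETS1-High against RFP 27 of them were higher and 23 lower, with ETS1-Low against RFP 27 were higher and 24 lower, and with ETS1-High against ETS1-Low 23 were higher and 17 lower. The median log2 fold changes were 0.04, 0.02 and 0.01, beside -0.01, 0.01 and 0.00 for all genes tested. Over all genes tested 37.0% were higher and 37.2% lower in the first comparison, 37.9% and 36.2% in the second, and 29.9% and 29.3% in the third. These shares are the baseline for the list and for each role below, and since each role holds few genes, nothing particular to a role is read from its counts. DLL4, NEURL1 and DTX1 met the filter on low counts through the RFP libraries alone, so against RFP they could only be found lower, as they were in both ETS1 groups.

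Of the 13 other targets tested, 7 were higher and 5 lower in ETS1-High (all genes: 37.0% and 37.2%), and 8 were higher and 4 lower in ETS1-Low (all genes: 37.9% and 36.2%), both against RFP. NRARP, which is induced by Notch and dampens it, fell in both, from 11.3, 12.7 and 11.3 CPM with RFP to 3.99, 4.02 and 4.03 CPM with ETS1-Low and 3.99, 4.72 and 3.69 CPM with ETS1-High. Its log2 fold changes were -1.55 (SE 0.09; adjusted p 1.87e-21, edgeR) and -1.51 (SE 0.09; adjusted p 3.58e-21, edgeR). NRARP and HEY1 therefore changed in opposite directions in both groups. HEYL, another HEY gene, rose by 1.24 in ETS1-Low against RFP (1.70 ± 0.16 to 4.01 ± 0.39 CPM; adjusted p 2.58e-11, edgeR) and stood at 1.89 ± 0.07 CPM in ETS1-High (0.15, adjusted p 0.388). The rise was 0.47 on log2(FPKM + 1). HES7, a member of the segmentation clock, fell by 1.01 in ETS1-High and by 0.54 in ETS1-Low against RFP (adjusted p 7.89e-08 and 0.000999, edgeR).

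Other listed targets, which also answer to many other signals, were among those that rose most. ID3, an inhibitor of helix-loop-helix factors, rose from 28.6 ± 1.53 CPM (RFP) to 131 ± 0.97 CPM (ETS1-Low) and 194 ± 9.97 CPM (ETS1-High). GATA2, a zinc finger transcription factor, rose from 10.2 ± 0.54 to 21.2 ± 1.04 and 68.2 ± 1.12 CPM, and the cell cycle inhibitor CDKN1A rose from 3.62 ± 0.40 to 12.7 ± 0.91 and 20.4 ± 0.57 CPM. These 3 genes passed in all 3 comparisons (largest adjusted p 1.04e-12, for CDKN1A between the ETS1 groups, edgeR). NFKB2, a subunit of NF-kappaB, fell in ETS1-High from 26.4 ± 1.20 to 14.7 ± 0.52 CPM (-0.84, adjusted p 2.46e-20, edgeR). In ETS1-Low it was at 27.9 ± 0.23 CPM, a difference of 0.08 that did not pass and that was -0.32 and passed on log2(FPKM + 1) (adjusted p 0.00246; range over its alternatives 0.00246 to 0.548).

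Of the 12 corepressors, 9 were higher and 2 lower in ETS1-High (all genes: 37.0% and 37.2%), and 8 were higher and 3 lower in ETS1-Low (all genes: 37.9% and 36.2%), against RFP. The median log2 fold changes were 0.16 and 0.18. The Groucho family members TLE1 and TLE4 moved most between the ETS1 groups. TLE4 had 4.82 ± 0.35 CPM with RFP, 4.45 ± 0.48 CPM with ETS1-Low and 19.2 ± 1.07 CPM with ETS1-High, and it rose by 2.11 from ETS1-Low to ETS1-High (adjusted p 3.58e-28, edgeR). TLE1 fell by 1.15 in ETS1-Low and rose by 1.09 in ETS1-High, both against RFP (adjusted p 6.03e-08 and 1.07e-09, edgeR). Its ETS1-High level exceeded that of ETS1-Low by 2.24 (adjusted p 3.56e-16, edgeR). On log2(FPKM + 1) the change in ETS1-Low was -0.51 and the difference between the ETS1 groups 1.03. The rise in ETS1-High against RFP was 0.52 at its lowest over the alternatives. The expected count of TLE4 was non-whole in all 9 libraries, so its level is uncertain. Of 8 coactivators, 4 were higher and 1 lower in ETS1-High against RFP (all genes: 37.0% and 37.2%). In ETS1-Low against RFP, 4 were higher and 3 lower (all genes: 37.9% and 36.2%).

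Of 9 genes for receptor cleavage, 3 were higher and 5 lower in ETS1-High, where 74.2% of all genes passed, and 3 were higher and 3 lower in ETS1-Low, where 74.1% passed, against RFP. PSEN2, a catalytic subunit of gamma-secretase, fell from 5.44 ± 0.17 CPM (RFP) to 1.40 ± 0.08 CPM (ETS1-Low) and 3.39 ± 0.19 CPM (ETS1-High) (-1.96 and -0.68; adjusted p 8.92e-20 and 1.44e-07, edgeR), and the former was -1.21 on log2(FPKM + 1). APH1B, another subunit of the complex, differed by -0.73 on the log2 scale between ETS1-High and ETS1-Low (15.4 ± 1.53 against 25.6 ± 0.50 CPM; adjusted p 1.42e-15, edgeR). FURIN, which cuts the receptor precursor and was singled out after its values were seen, rose from 73.0 ± 0.29 CPM (RFP) to 144 ± 3.41 CPM (ETS1-Low) and 142 ± 7.21 CPM (ETS1-High) (adjusted p 8.15e-31 and 1.99e-30, edgeR).

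Of 12 genes for ubiquitination and trafficking, 3 were higher and 5 lower in ETS1-High, where 74.2% of all genes passed, and 4 were higher and 7 lower in ETS1-Low, where 74.1% passed, against RFP. NEURL1 and DTX1, which could only be found lower, are 2 of the lower genes in each. The ubiquitin ligase gene DTX4 fell from 8.56 ± 0.19 CPM (RFP) to 1.25 ± 0.22 CPM (ETS1-Low) and 2.83 ± 0.09 CPM (ETS1-High) (-2.76 and -1.60; adjusted p 1.10e-26 and 1.27e-19, edgeR). On log2(FPKM + 1) these were -1.19 and -0.81. Among the 4 genes tested for sugar transfer to the receptors, LFNG was also singled out after its values were seen. LFNG encodes a fringe enzyme, which shifts receptors between ligand classes. Its counts were 99, 110 and 122 in RFP, 21, 28 and 19 in ETS1-Low, and 18, 15 and 24 in ETS1-High. The log2 fold changes of LFNG against RFP were -2.06 and -2.37 (adjusted p 3.89e-12 and 1.18e-13, edgeR). RFNG, another fringe gene, had a far higher level, at 38.8 ± 0.60 CPM (RFP), 39.7 ± 1.36 CPM (ETS1-Low) and 34.9 ± 0.94 CPM (ETS1-High). Against RFP, RFNG differed by 0.03 in ETS1-Low, which did not pass, and by -0.15 in ETS1-High (adjusted p 0.000726, edgeR). Against RFP, ETS1-High had 2 of the 3 other ligands tested lower, and ETS1-Low all 3, each including DLL4, where 37.2% and 36.2% of all genes were lower. The remaining receptor, NOTCH4, had a mean of 13.6 counts and did not pass in any of the 3 comparisons.

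**Figure D4:**
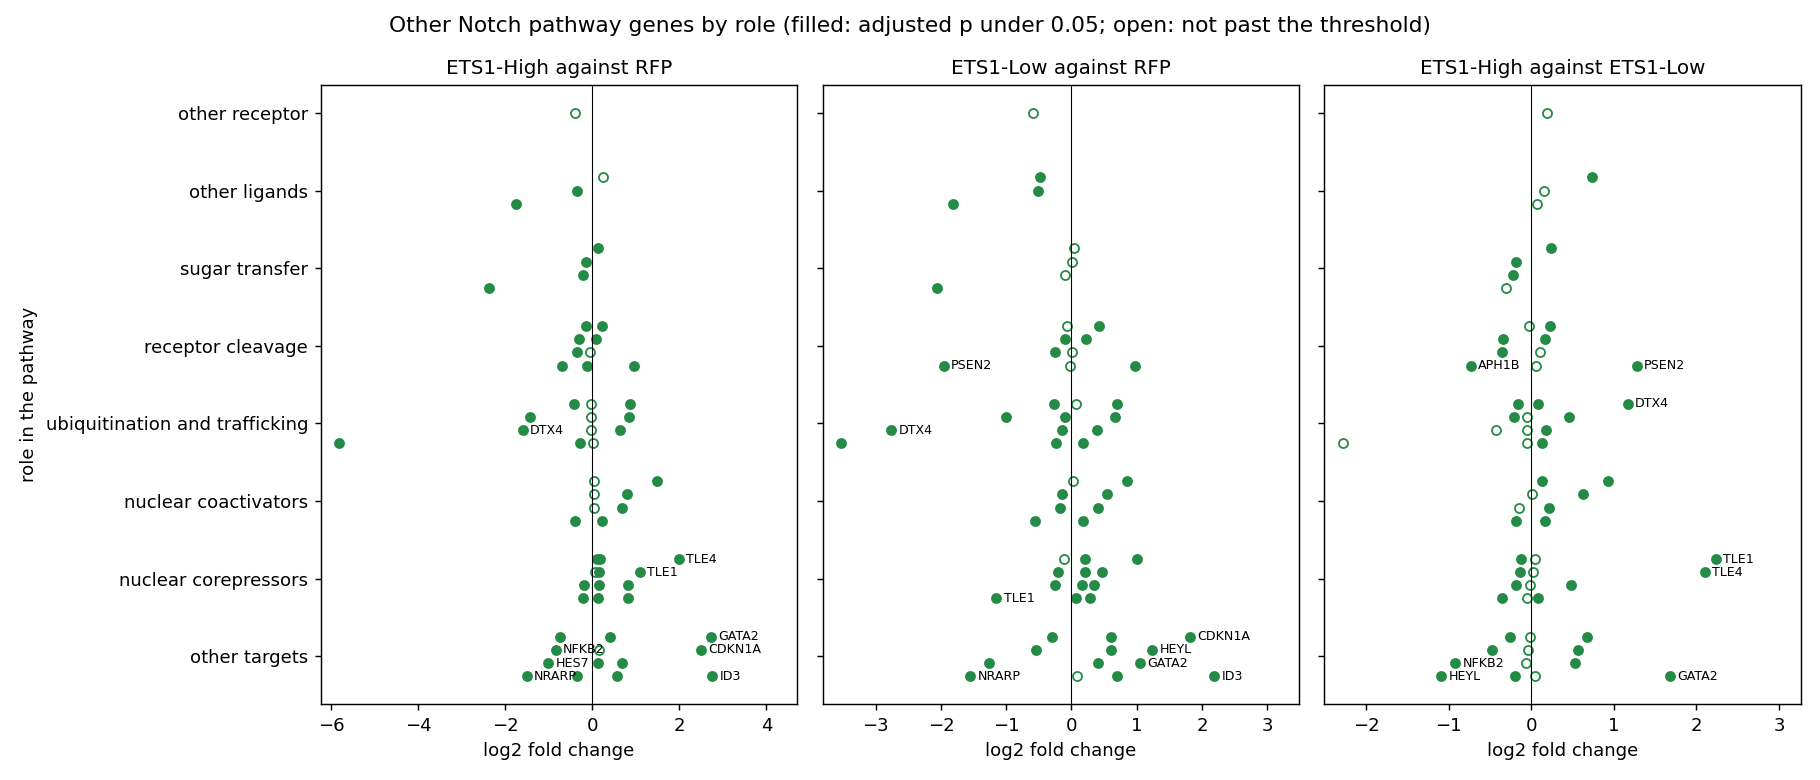
Log2 fold change of the 62 other Notch pathway genes tested, by role, in the 3 comparisons; filled points had an adjusted p under 0.05, and the labels are those genes named under the naming rule that passed in that panel with a log2 fold change of at least 0.7 in size. Within most roles the points fall on both sides of 0, with ID3, GATA2 and CDKN1A to the right and NRARP and DTX4 to the left against RFP.

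Last, the genes most like a receptor, a ligand and a target in their pattern over the 9 libraries were found, by the root mean square difference in log2 CPM centred on each gene's mean, among 12622 genes. For NOTCH3 these were TENM2 (0.02), LPCAT1 (0.05) and MYCBP2 (0.05), where the median gene differed by 0.45. For HEY1 they were LIPI (0.05), HELZ2 (0.06) and CASP8 (0.06), with a median of 0.79. LIPI, one of the Ewing sarcoma markers listed above, averaged 19.4 CPM with RFP, 61.2 CPM with ETS1-Low and 60.5 CPM with ETS1-High. For JAG2 the closest were CDC42EP1 (0.27), TRPM8 (0.30) and DUSP26 (0.31), with a median of 1.26, so JAG2 had no match as close as those of NOTCH3 and HEY1. CDC42EP1 averaged 3.43 CPM with RFP, 14.5 CPM with ETS1-Low and 1.42 CPM with ETS1-High.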

How the data were processed

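Expected counts and FPKM were used. The authors deposited unscaled expected counts per gene in a table named as raw RSEM output. The second table holds FPKM per the file headers, a unit relative to the length of a gene and the depth of a library. The submitters' processing notes list cutadapt 4.4, STAR 2.7.3, featureCounts (Subread 2.0.3) and limma 3.38.3 with the build GRCh38; the annotation and the use of strand are not given in the sources used here. Columns were matched to libraries by name, L and H being read as Low and High.

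Expected counts were rounded, filtered with filterByExpr (17235 of 58381 genes left), scaled by TMM and tested by quasi-likelihood in edgeR 4.0.16 (R 4.3.3), all 9 libraries in 1 fit with the group as the factor. P-values were Benjamini-Hochberg adjusted over all genes tested. Intervals are 95% intervals from the fit. The fit was also run on simulated counts in which few genes changed. Most genes passed against RFP in the real data, so that run does not check the fit under such conditions. Totals of 39484704 to 46654734 counts per library make genes under about 10 counts imprecise. Replicates differed by more than sampling noise (chi-square per gene 2.66 to 5.19), so each was counted.

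Positions came from GENCODE v44 by gene identifier (99.2% of tested genes), and promoters from RefSeq. Local medians use neighbours whose mean log2 CPM exceeds 1, where 20 or more exist. The genes and lists were chosen with earlier results of these data known. The naming rule took the 10 genes, ETS1, up to 3 other pathway genes per comparison and direction with the largest change (mean count of 100 or more, libraries not overlapping), and the 3 genes most like the leading receptor, ligand and target. Alternatives were other size factors, DESeq2 1.42.0, other filters, a replicate block, fits of 2 groups, leaving out each library, and limma 3.58.1 on log2 FPKM with a pseudocount of 1 or 0.1.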

Additional observations from a re-analysis of the deposited data

Results flagged for a closer look

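For 6 of the 10 genes the effects of ETS1-High and ETS1-Low against RFP differed in the edgeR test of ETS1-High against ETS1-Low, where 59.2% of all genes tested passed, so that this number is at the background and only the sizes describe these genes. The log2 fold change in ETS1-High against ETS1-Low was -2.95 for JAG2, which was above RFP in one group and below it in the other. It was 0.66 for NOTCH1 and 0.49 for JAG1, which were lower in ETS1-Low, and 0.60 for HES1, which was higher in ETS1-High. It was -0.22 for NOTCH2 and -0.14 for NOTCH3. The neighbours of NOTCH1 and NOTCH2 had medians of 0.43 and -0.20 in the same comparison, and those of the other 4 genes lay between -0.03 and 0.01. ETS1 level and clone cannot be told apart.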

How the results depend on the processing

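The counts of all genes, of the 10 genes and of the other pathway genes called stayed within 1.5 times their values under every alternative run. Over the fits that left out 1 library, the 10 genes gave 7 to 9 calls in ETS1-High against RFP, 9 to 10 in ETS1-Low against RFP and 6 to 7 between the ETS1 groups. Of 550 refits of single log2 fold changes of the 10 genes, 532 kept their direction and side of the threshold where a call was involved, 10 passed newly and 8 no longer passed. These concern NOTCH2, NOTCH3, HES1 and HEY2 and stand beside their values; the cause was not tested. NFKB2 in ETS1-Low against RFP turned to -0.32 with a pseudocount of 1, filtered or not, and to -0.33 with a pseudocount of 0.1 on FPKM. DLL1 and HEY2 gave no value with at least 10 counts required in every library or on filtered FPKM. They also gave none between the ETS1 groups when only those groups were fitted. Local medians over 5 Mb gave none for JAG1, DLL1, RBPJ and HEY1. Same-numbered libraries did not deviate together (correlations of -0.03 to 0.03; RFP replicate 1 correlated more with ETS1-Low replicate 2, at 0.02, than with its own number, at -0.01). With the replicate block 8, 9 and 6 of the 10 genes were called, as without it. Depth limits DLL1 and HEY2, with at most 38 counts per library.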
